A study of Homo sapiens with 4 samples.

Results

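The 10 genes described here encode cyclin E1 and its closest partners in the passage of a cell from G1 into S phase: the cyclins CCNE1, CCNE2, CCND1 and CCND3, the cyclin-dependent kinases CDK2, CDK4 and CDK6, the kinase inhibitors CDKN1A (p21) and CDKN1B (p27), and the retinoblastoma protein RB1. They were chosen by name, with earlier results of these data known, and all 10 were among the 19140 genes tested. Their messenger RNA was measured on microarrays in Huh7, a human hepatocellular carcinoma cell line, after treatment with an siRNA, a short RNA that silences a chosen gene. The siRNA was either directed at nuclear factor 90 (siNF90) or a control named siNTC. There were 2 arrays of siNF90 cells and 2 of siNTC cells. Both groups share the cell line, and the sources used here give no siRNA dose or time. The labels do not state that replicates were separate cultures, so p-values reflect the spread of these 4 arrays alone, and that spread may be technical. Depletion of NF90 itself was not checked, because its gene was not analysed here.

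D-type cyclins with CDK4 or CDK6 begin the phosphorylation of RB1 in G1, and cyclin E with CDK2 extends it. Phosphorylated RB1 releases E2F factors, which switch on the genes of S phase entry, CCNE1 among them, while p21 and p27 hold cyclin E-CDK2 in check. These proteins are controlled largely by phosphorylation and degradation, so a messenger level shows only part of their regulation.

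NF90 is known as a double-stranded RNA-binding protein for which a restraint on miR-7 maturation has been reported, and CCNE1 has been reported as a gene that miR-7 can restrain. These reports link CCNE1 to the comparison through miR-7. Whether other G1/S genes have such a link was not examined, and the link itself was not tested here. The mature microRNA is shown because its seed, bases 2 to 8 in capitals, is the part that pairs with target messengers. The 250 bases before the annotated start of CCNE1 and of CDK4 are shown as examples of the control regions of a cyclin and a kinase gene. All 3 sequences are from RefSeq, build GRCh38.p14.
miR-7-5p, the copy from MIR7-1 at chr9:83969811-83969834, minus strand: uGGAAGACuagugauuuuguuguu
CCNE1 promoter, chr19:29811741-29811990, plus strand: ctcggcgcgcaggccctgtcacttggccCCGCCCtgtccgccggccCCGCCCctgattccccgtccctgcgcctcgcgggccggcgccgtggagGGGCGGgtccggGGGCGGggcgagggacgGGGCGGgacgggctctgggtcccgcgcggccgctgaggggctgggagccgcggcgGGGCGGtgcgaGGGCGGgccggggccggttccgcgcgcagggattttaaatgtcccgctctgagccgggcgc
CDK4 promoter, chr12:57752311-57752560, minus strand: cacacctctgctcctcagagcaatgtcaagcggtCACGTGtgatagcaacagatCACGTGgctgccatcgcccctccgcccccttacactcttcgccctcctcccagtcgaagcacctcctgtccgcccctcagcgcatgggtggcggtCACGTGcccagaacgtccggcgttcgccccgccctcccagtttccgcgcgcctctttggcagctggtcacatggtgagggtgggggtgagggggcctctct

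The capitals in CCNE1 mark 7 matches to the GC box GGGCGG on either strand, the letters that SP1-type factors are known to read. Of the 35116 promoters of that length in the RefSeq table, 42.6% held at least 1 GC box. The capitals in CDK4 mark 3 matches to CACGTG, the E-box read by MYC-MAX dimers, which 6.34% of the promoters held. The CDK4 stretch also held 3 GC boxes, which are not marked. A search for exact E2F motifs found 0 in the CCNE1 stretch and 0 in that of CDK4, where 2.79% of the promoters held at least 1. Matches are a description of the letters and not evidence of binding. RefSeq promoters were matched for 7 of the 10 genes. Among these, CCNE1 had the most GC boxes and only CDK4 held an E-box, so the stretches shown are not typical of the set.

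The deposited values are on a log2 scale, where a difference of 1 is a 2-fold change. Each row of the table is 1 probe set, which reads a stretch of a gene. The 10 genes had 134 probe sets, of which 110 reached the filter of the 40th percentile over all rows (log2 2.13) and were kept. A gene value is the mean of its kept probe sets on an array, and a difference is siNF90 minus siNTC. The medians of all rows were 2.79 and 2.72 on the siNF90 arrays and 2.79 and 2.75 on the siNTC arrays, and the arrays correlated at between 0.936 and 0.958 across genes. The siNF90 array 2 had the lowest correlations with the other arrays. The siNF90 arrays correlated at 0.950 with each other, below the 0.958 and 0.951 of siNF90 array 1 with siNTC arrays 1 and 2. Of the carcinoma and hepatocyte genes checked, ALB, AFP, APOB, TTR, FGB, TF and GPC3 had median probe sets above the 99th percentile of every array. APOA1 and SERPINA1 lay between percentiles 67.7 and 89.9. As a list, these 9 genes averaged 9.37 and 9.32 on the siNF90 arrays and 9.55 and 9.47 on the siNTC arrays. Of the 9 measured markers of blood, endothelial, stromal and muscle cells, LYZ was above percentile 99.7 and the others lay between percentiles 7.50 and 54.7. The 8 of them that were tested averaged 3.94 and 3.92 on the siNF90 arrays and 3.67 and 3.60 on the siNTC arrays, all 8 with positive differences and 0 past the threshold. The part of these shifts in the results below was not tested.

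None of the 10 genes passed the test. The question was whether the messengers of the G1/S switch differed after treatment with siNF90, and the gene test was limma, with p-values adjusted by Benjamini and Hochberg across the 19140 genes and a threshold of 0.05. It called 0 of the 10, against a background of 0% of all genes, and the smallest adjusted p among the 10 was 0.786. At an unadjusted p under 0.05 the count was also 0 of 10, against 8.79% of all genes. With a variance trend and a robust prior limma called 0 of the 10, against 0.251% of all genes. Of the 10 differences 4 were positive and 6 negative, where 47.5% of all genes were positive, with a median of -0.11, beside a median of -0.018 over all genes. The differences ran from -0.22 in CCND3 to 0.12 in CDK4. Each was smaller than its standard error (SE) except that of CCND3, at -0.22 with an SE of 0.21.

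The intervals limit how large a difference these arrays allow. The 95% interval lay within 2-fold in either direction for all 10 genes, against 65.2% of all genes tested. This bound did not hold in every other setting. It was passed with an array left out for CCNE1, CCNE2, CCND3, CDKN1A and RB1, where the lowest ends were -1.26, -1.30, -1.10, -1.28 and -1.05. With an array left out, an upper end passed the bound too for CCNE1, CCNE2 and CDKN1A. The bound was also passed with the median of the kept probe sets for CCNE2 (-1.01 to 0.74) and CDKN1A (-0.99 to 1.21). Over probe sets at or above the 60th percentile it was passed for CCND3 (-1.82 to 0.73). The bound is one on gene values, and those of CCNE2 and CCND3 rest mostly on dim probe sets. Of CCNE2 only probe set 17079310 reached the 60th percentile, and its own interval, from -0.63 to 1.11, passed the bound. In the main setting the widest interval was that of CDKN1A, from -0.89 to 0.67, and the narrowest that of CDK4, from -0.34 to 0.57. Changes inside these intervals are not excluded with 2 arrays per group. The intervals are not the detection limit of the adjusted test. It called 0 genes, although differences over all genes ran from -2.91 to 3.26. In RNA from a whole culture, a different share of cells in a cycle phase and a different level per cell cannot be told apart.

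**Figure D1:**
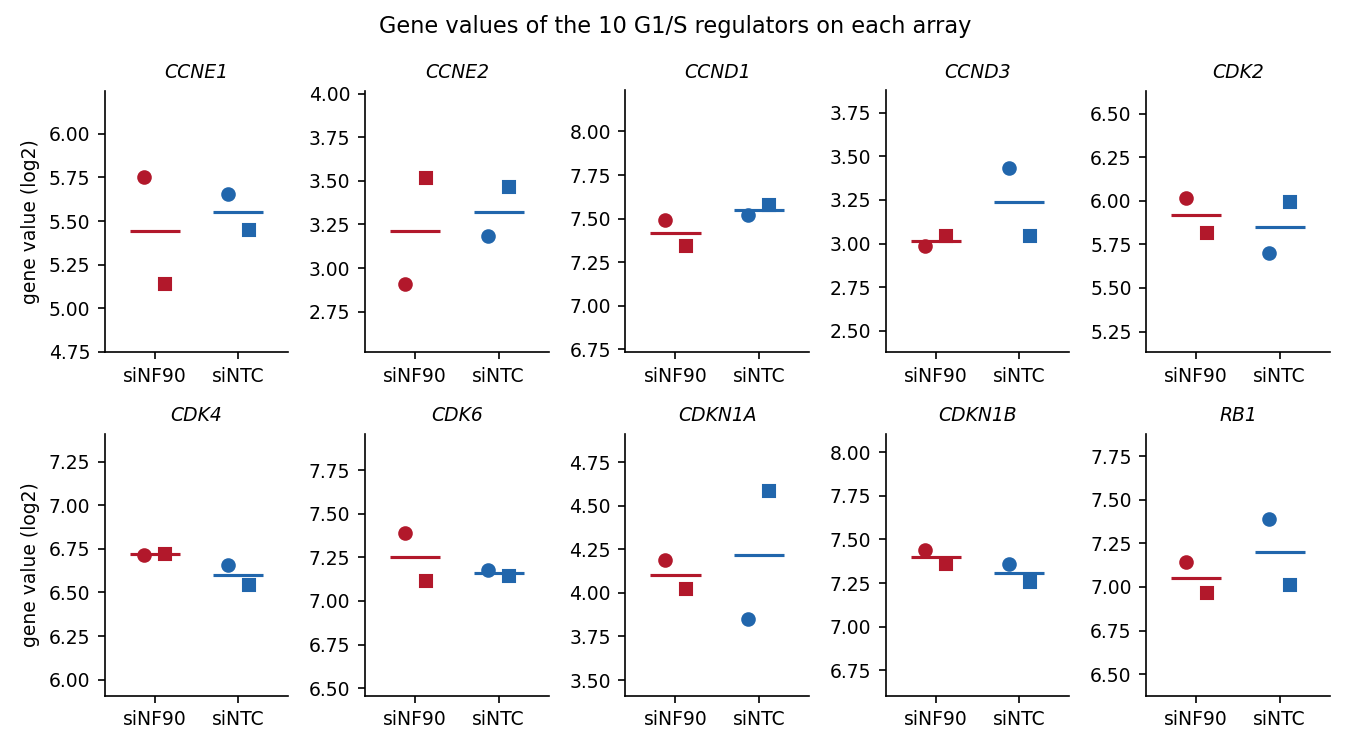
Gene values (log2) of the 10 genes on each array, siNF90 in red and siNTC in blue, with replicate 1 as a circle, replicate 2 as a square and the group mean as a bar. Each panel spans the same log2 range, and the arrays of the groups overlap in 7 of the 10 genes.

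**Figure D2:**
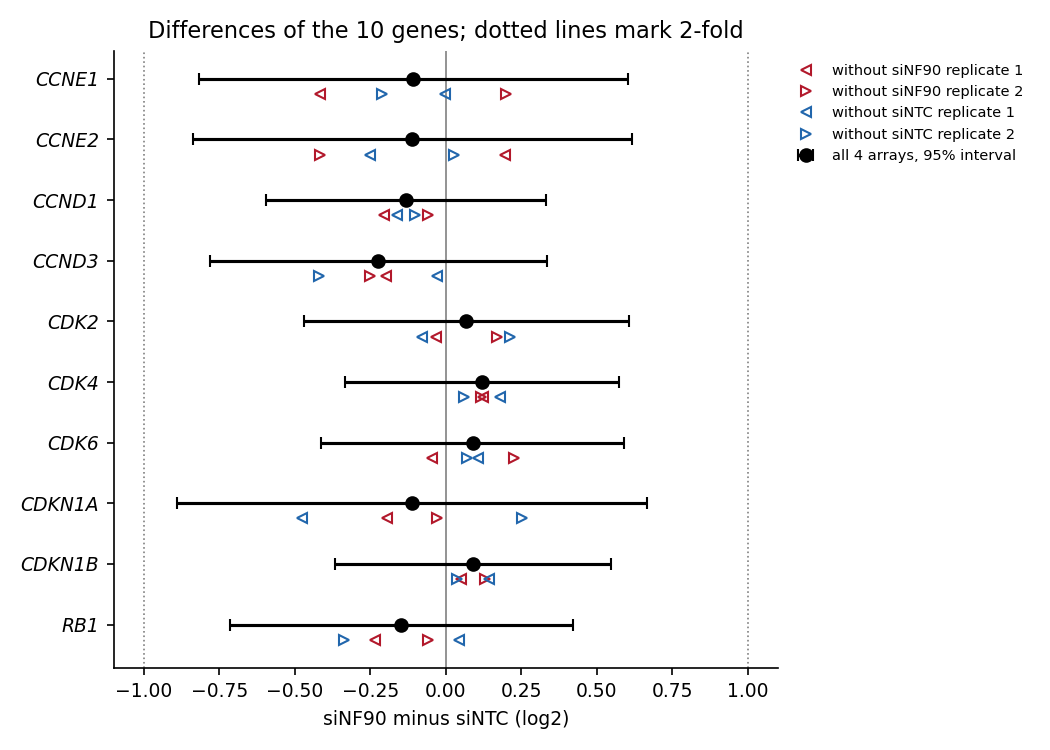
Differences (siNF90 minus siNTC, log2) of the 10 genes with 95% intervals from limma in black, and below each the differences with 1 array left out. All 10 of these intervals, from the fit with all 4 arrays, cross 0 and stay within 2-fold, marked by dotted lines.

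CCNE1, the cyclin that activates CDK2 late in G1, had gene values of 5.75 and 5.14 on the siNF90 arrays, against 5.66 and 5.45 on the siNTC arrays. The siNF90 arrays were the highest and the lowest of the 4, so the groups overlapped. The means were 5.44 ± 0.44 in siNF90 and 5.55 ± 0.15 in siNTC cells (SD, n = 2 each). The difference of -0.11 (SE 0.27) corresponds to a fold of 0.928, with a 95% interval from 0.567 to 1.52, and its adjusted p in limma was 0.926. Without the siNF90 array 2 the difference was 0.20, and without the siNF90 array 1 it was -0.42, with an interval from -1.12 to 0.29.

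All 11 probe sets of CCNE1 were kept, and 6 had positive and 5 negative differences. The most negative was probe set 16860419, at 5.79 and 2.42 on the siNF90 arrays against 5.16 and 5.12 on the siNTC arrays. Its low value on the siNF90 array 2 stood alone, since the other 3 arrays lay between 5.12 and 5.79. Without this probe set, a comparison added after seeing the data, CCNE1 had 5.75 and 5.41 in siNF90 and 5.71 and 5.48 in siNTC cells, a difference of -0.015 with an interval from -0.58 to 0.55. The most positive was probe set 16860428, at 5.69 and 4.93 in siNF90 against 5.57 and 3.92 in siNTC cells. Probe set 16860425 had both siNF90 arrays, at 5.09 and 5.54, below both siNTC arrays, at 5.95 and 5.96. It was the only CCNE1 probe set of that kind, and 1 other had both siNF90 arrays above. limma's test for unequal change among the probe sets of a gene gave CCNE1 a false discovery rate of 0.948.

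**Figure D3:**
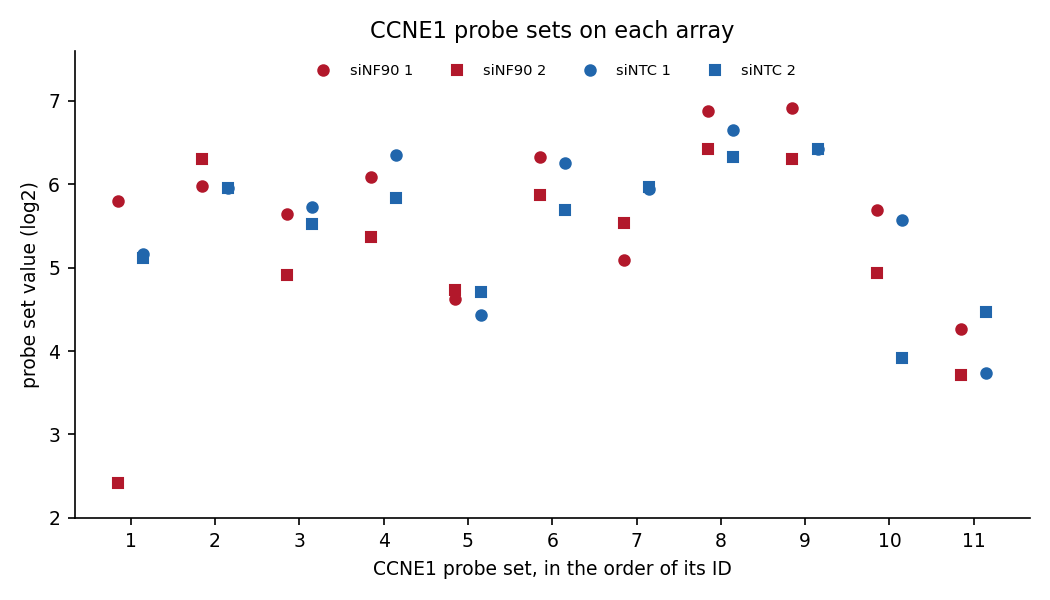
Values (log2) of the 11 probe sets of CCNE1 on the siNF90 arrays (red) and the siNTC arrays (blue), with replicate 1 as circles and replicate 2 as squares. The first probe set holds the single low value of 2.42, on the siNF90 array 2.

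The genes whose gene values followed CCNE1 most closely were the protein kinase HIPK4, PODNL1, and TEK, the angiopoietin receptor, with root mean square distances of 0.013, 0.019 and 0.022 from the centred CCNE1 values over the 4 arrays. The ranking took 14440 genes with at least 3 kept probe sets. It used the CCNE1 gene value with probe set 16860419 included, so the single low value on the siNF90 array 2 is part of the matched pattern. It was not repeated without that probe set. The nearest of the other G1/S regulators was CDK6, at 0.17, and 1790 genes were nearer than it. With 4 arrays, many genes share a pattern, and the ranks are a description only.

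CCNE2, the second E-type cyclin, had gene values of 2.91 and 3.52 in siNF90 and 3.18 and 3.46 in siNTC cells. The siNF90 arrays again lay outside both siNTC arrays, here with replicate 1 low and replicate 2 high, the reverse of CCNE1. The difference was -0.11 (SE 0.28, adjusted p in limma 0.925). Only 8 of its 14 probe sets were kept, and 1 of them, 17079310, reached the 60th percentile of all rows. That probe set had 7.84 and 8.28 in siNF90 and 7.87 and 7.76 in siNTC cells, a difference of 0.24 with an interval from -0.63 to 1.11. Its sign was thus opposite to that of the gene value, which turned to 0.20 without the siNF90 array 1 and was -0.42 without the siNF90 array 2. Among the 7 dimmer kept probe sets, 17079308 had 1.94 and 2.02 in siNF90 against 3.06 and 3.25 in siNTC cells, while 17079303 had 1.87 and 3.94 against 1.62 and 2.79. The first had an unadjusted p of 0.014 in the limma test of single rows, and its adjusted p was 0.629.

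CCND1, cyclin D1, which links mitogen signals to CDK4 and CDK6, had 7.49 and 7.34 in siNF90 and 7.52 and 7.58 in siNTC cells. Both siNF90 values were under both siNTC values, by a narrow margin. The difference of -0.13 (SE 0.18, adjusted p in limma 0.852) kept its sign with each array left out, between -0.21 and -0.058. Of its 9 kept probe sets 6 were lower and 3 higher. The largest negative difference, -0.47, was in probe set 16728262, with 3.70 and 3.37 against 4.01 and 4.01, and the largest positive, 0.092, in 16728264, with 9.59 and 9.38 against 9.35 and 9.43 (siNF90 against siNTC). In 3 of the 9 both siNF90 arrays lay below, and in 0 above.

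CCND3, cyclin D3, had 2.99 and 3.04 in siNF90 and 3.43 and 3.04 in siNTC cells. The groups did not overlap only because the siNF90 array 2 and the siNTC array 2 differed in the third decimal. Its difference of -0.22 (SE 0.21, adjusted p in limma 0.786) was the most negative of the 10. Only 5 of its 13 probe sets were kept, and 2 reached the 60th percentile. Probe set 17019182 had 1.75 and 2.58 in siNF90 against 2.19 and 3.27 in siNTC cells, and 17019188 ran the other way with 2.55 and 3.41 against 2.20 and 1.68. With the median of the kept probe sets in place of their mean the difference of CCND3 was -0.0087, and over the 2 probe sets at or above the 60th percentile it was -0.54. Without the siNTC array 1 it was -0.028, and without the siNTC array 2 it was -0.42.

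In gene values as a whole, both siNF90 arrays lay beyond both siNTC arrays in 3 of the 10 genes, CCND1 and CCND3 below and CDK4 above. Over all genes tested 41.1% had no overlap, 19.2% above and 22% below, so the share of the G1/S genes was not higher than the background.

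Among the kinases, CDK2, the partner of the E-type cyclins, had 6.02 and 5.82 in siNF90 and 5.70 and 5.99 in siNTC cells. The groups overlapped, and the difference was 0.068 (SE 0.21, adjusted p in limma 0.940). With each array left out it lay between -0.078 and 0.21. Of 13 kept probe sets 9 were higher and 4 lower. They ran from -0.64 in 16752317, with 1.73 and 2.14 in siNF90 against 1.32 and 3.83 in siNTC cells, to 0.57 in 16752310, with 5.46 and 3.58 against 3.91 and 3.99. In both of these 1 array stood apart from the other 3.

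CDK4, a kinase partner of the D-type cyclins, had 6.72 and 6.72 in siNF90 and 6.66 and 6.54 in siNTC cells. The siNF90 arrays were nearly equal and lay above both siNTC arrays. The difference was 0.12 (SE 0.17, adjusted p in limma 0.864). Over the 12 probe sets at or above the 60th percentile it was -0.0025, and with the median of the kept probe sets it was -0.20. Of the 3 kept probe sets below that percentile, 16766691 had the largest difference of the gene, 1.71, with 3.22 and 4.20 in siNF90 against 2.24 and 1.76 in siNTC cells, and the other two had 0.10 and 0.0076. At the other end, 16766700 had 3.61 and 3.14 in siNF90 against 3.70 and 4.30 in siNTC cells. Probe set 16766691 had an unadjusted p of 0.022 and an adjusted p of 0.637 in the limma test of single rows. CDK4 had the smallest false discovery rate of the 10 for unequal probe sets, 0.0751, and did not pass.

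CDK6, the other kinase of the D-type cyclins, had 7.39 and 7.12 in siNF90 and 7.18 and 7.15 in siNTC cells. The siNF90 arrays lay on either side of the siNTC arrays. The difference was 0.089 (SE 0.19, adjusted p in limma 0.911). With each array left out it lay between -0.047 and 0.22. Its probe set 17059757 had 7.68 and 7.40 in siNF90 against 6.73 and 6.26 in siNTC cells, a difference of 1.05 (unadjusted p 0.035, adjusted p 0.654 in limma). At the other end, 17059768 had 4.38 and 2.53 against 4.44 and 3.87. The remaining 8 kept probe sets of CDK6 lay between these, and in all 6 of 10 were higher.

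CDKN1A, the p53-induced inhibitor p21, had 4.19 and 4.02 in siNF90 and 3.85 and 4.58 in siNTC cells. The siNTC arrays were the lowest and the highest of the 4, which gave CDKN1A the largest SE of the 10 genes, 0.30. The difference was -0.11 (adjusted p in limma 0.929). Probe set 17008010 carried the most negative difference, -2.08, with 1.62 and 1.47 in siNF90 against 2.19 and 5.05 in siNTC cells. The high value was on the siNTC array 2 alone. Probe set 17008019 had 3.94 and 4.30 in siNF90 against 2.622 and 2.998 in siNTC cells, a difference of 1.31 (unadjusted p 0.016, adjusted p 0.635 in limma). The sign of the CDKN1A difference depended on the filter and on 1 array: over the probe sets at or above the 60th percentile it was 0.27, and without the siNTC array 2 it was 0.25, against -0.48 without the siNTC array 1.

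CDKN1B, the inhibitor p27, whose protein is removed at the start of S phase by the SKP2 ubiquitin ligase, had 7.44 and 7.36 in siNF90 and 7.36 and 7.26 in siNTC cells. The siNF90 array 2 lay just below the siNTC array 1. The difference of 0.090 (SE 0.17, adjusted p in limma 0.902) lay between 0.038 and 0.14 with each array left out. Its 8 kept probe sets ran in a narrow band from -0.089 in 16748485 to 0.36 in 16748489, and in 0 of them did the groups separate. Probe set 16748489 had 6.83 and 6.52 in siNF90 against 6.66 and 5.97 in siNTC cells, and 16748485 had 7.11 and 6.80 against 7.15 and 6.93.

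RB1, which binds E2F factors until the kinases phosphorylate it, had 7.14 and 6.97 in siNF90 and 7.39 and 7.01 in siNTC cells. The groups overlapped, and the siNTC array 1 was the highest. The difference was -0.15 (SE 0.22, adjusted p in limma 0.866). Of its 23 kept probe sets 18 were lower and 5 higher, and 9 had both siNF90 arrays under both siNTC arrays, against 2 over them. Over all kept rows with 1 gene symbol, 20.3% lay below in this way and 18% above. The probe sets of RB1 read the same messenger on the same arrays and are not independent. Without the siNTC array 1 the RB1 difference was 0.043, and without the siNTC array 2 it was -0.34. Its probe sets ran from -0.82 in 16774714, with 6.59 and 5.55 in siNF90 against 6.69 and 7.10 in siNTC cells, to 1.28 in 16774718, with 4.75 and 4.50 against 4.15 and 2.53.

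Taking the 110 kept probe sets of the 10 genes together, 52 had positive and 58 negative differences, and of all kept rows 51.6% were negative. The limma test of single rows called 0 of them, against 0% of 171120 rows, and 4 had an unadjusted p under 0.05, against 7.38% of all kept rows. They were the probe sets of CCNE2, CDK4, CDK6 and CDKN1A given above. The siNF90 arrays were both above the siNTC arrays in 14 of the 110 probe sets and both below in 24, with a background of 38.3% for either direction. The test for unequal probe sets called 0 of the 10 genes at a false discovery rate of 0.05, against 2.76% of 16175 genes.

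The scatter between replicate arrays depended on the level of the probe set. In the 91 probe sets of these genes at or above the 60th percentile (a log2 value of 3.44), the median gap between arrays was 0.26 in siNF90 and 0.26 in siNTC cells. In the 19 kept probe sets below that level it was 0.81 in siNF90 and 0.85 in siNTC cells. The corresponding median size of a difference between the groups was 0.20 in the brighter and 0.50 in the dimmer class.

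**Figure D4:**
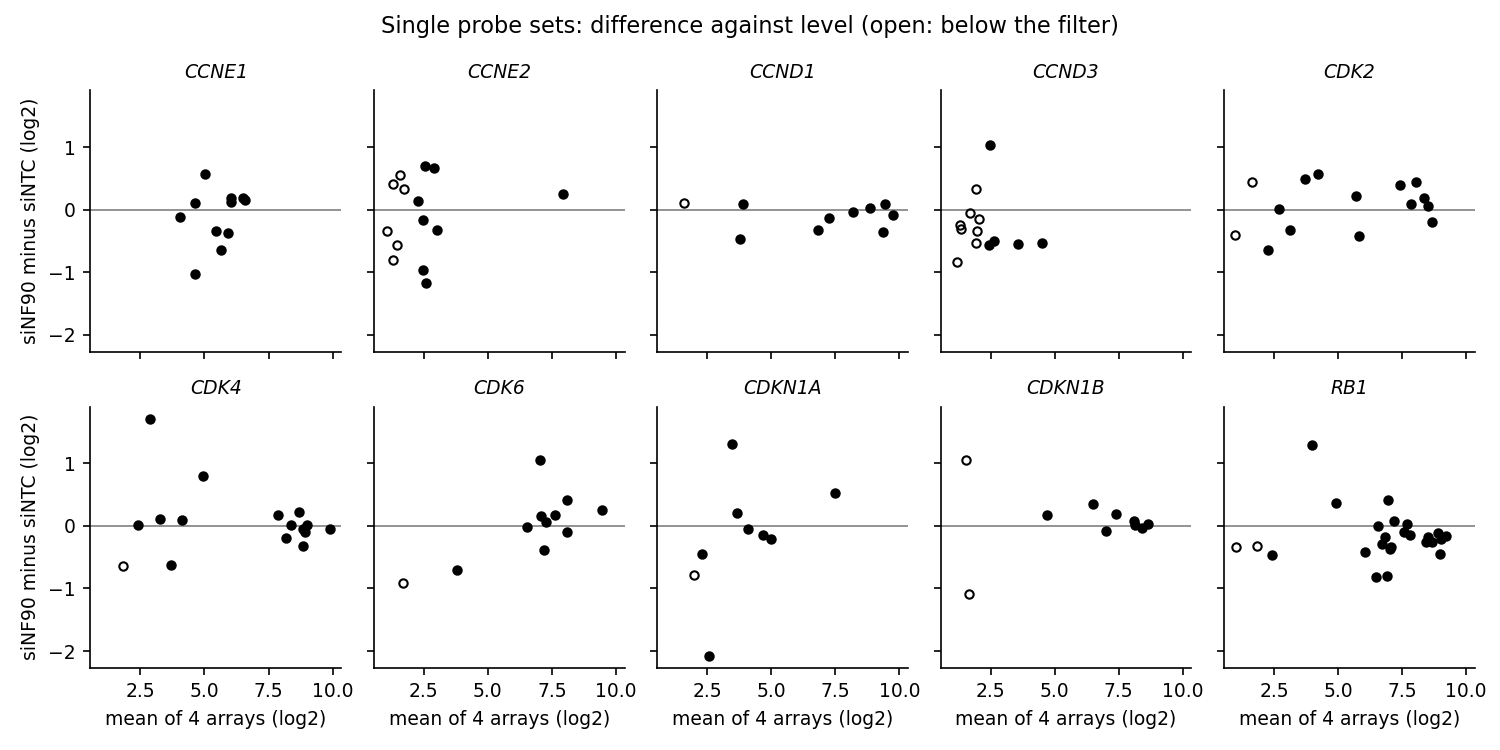
Difference of each probe set (siNF90 minus siNTC, log2) against its mean over the 4 arrays (log2) for the 10 genes, with filled points for kept and open points for dim probe sets. The points spread most at low levels, from -2.08 in CDKN1A to 1.71 in CDK4, and RB1 has 18 of its 23 kept points below 0.

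The wider G1/S pathway was read through 6 lists of 80 genes, of which 75 were tested. The main limma test called 0 of the 75, against 0% of all genes, and 4 had an unadjusted p under 0.05, against 8.79% of all genes. Both siNF90 arrays lay beyond both siNTC arrays in 31 of the 75, 18 below and 13 above, where the backgrounds were 41.1% for either direction, 22% below and 19.2% above. By list, in the order described below, the groups did not overlap in 2 of 8, 1 of 6, 3 of 12, 12 of 16, 7 of 19 and 6 of 14 genes. The median difference over the 75 was 0.057, beside -0.018 over all genes. For comparison, 90% of all genes had differences between -0.67 and 0.60, the 5th and 95th percentiles.

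Other cyclins and kinases of G1 and S phase and of the CDK-activating kinase had a median difference of 0.15, with 6 of 8 tested positive and 0 called. CDK1, the kinase of mitotic entry, had 6.22 and 5.84 in siNF90 and 5.83 and 5.43 in siNTC cells, a difference of 0.40 (SE 0.25). CCNC, cyclin C of the Mediator kinase module, had 0.21 (SE 0.19), CCND2, cyclin D2, had -0.45 (SE 0.34), and CDK7, which phosphorylates the activating loop of other CDKs, had -0.20 (SE 0.18).

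All 6 genes listed as other CDK inhibitors, the phosphatase CDKN3 among them, had positive differences, where 47.5% of all genes were positive. Their median was 0.20, and 0 of the 6 were called. CDKN3, a phosphatase that acts on CDK2, had 6.42 and 6.17 in siNF90 and 5.99 and 5.83 in siNTC cells. Its difference of 0.39 (SE 0.20) had an adjusted p of 0.636 in limma, and it was the only one of the 6 without overlap. CDKN2C (p18) had 0.30 (SE 0.31), CDKN1C (p57) 0.21 (SE 0.27) and CDKN2B (p15) 0.17 (SE 0.21), each with overlapping arrays. CDKN1C and CDKN2B were dim, with means of 3.11 and 2.85 in siNF90 and 2.90 and 2.69 in siNTC cells, not far above the filter of 2.13. CDKN2D was dimmer still, with means of 2.73 in siNF90 and 2.54 in siNTC cells, and CDKN2A had 3.62 and 3.56. The 8 tested markers of other cells, most of them at similar low levels, also all had positive differences. Whether these shifts are related was not tested.

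The pocket proteins, E2F and DP factors had a median difference of 0.058, with 7 of 12 positive, 5 negative and 0 called. The 4 with the smallest p were negative. TFDP2, a DNA-binding partner of E2Fs, had -0.31 (SE 0.26), RBL2, the pocket protein p130, had -0.27 (SE 0.20), and the repressor-type factors E2F5 and E2F4 had -0.26 (SE 0.22) and -0.25 (SE 0.20).

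The list on turnover and activity of G1/S proteins holds ubiquitin ligase subunits and adaptors, an inhibitor of such a ligase, a deubiquitinase, and kinases and phosphatases that act on cyclins and CDKs. Its 16 tested genes had a median of -0.14, with 6 positive, 10 negative and 0 called in the main test. WEE1, the kinase that restrains CDK1 and CDK2 by tyrosine phosphorylation, had 6.68 and 6.59 in siNF90 and 7.47 and 7.39 in siNTC cells. Its arrays were close within each group and well apart between groups, with a difference of -0.80 (SE 0.17) and a fold of 0.575. The adjusted p of WEE1 was 0.514 in the main limma test and 0.0432 with the trend and robust prior, the only gene of the 75 that passed there. AMBRA1, an adaptor of the ligase that degrades D-type cyclins, had 5.67 and 5.63 in siNF90 and 6.05 and 6.29 in siNTC cells, a difference of -0.52 (SE 0.19, adjusted p in limma 0.550). The deubiquitinase USP28 had 0.35 (SE 0.18), and RBX1, the RING subunit of cullin ligases, 0.31 (SE 0.17).

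E2F-regulated genes of S phase entry, the readout of the RB1 switch, had a median of -0.055, with 8 of 19 positive, 11 negative and 0 called. CDT1, which loads the replicative helicase, had 6.58 and 6.51 in siNF90 and 5.996 and 5.958 in siNTC cells, a difference of 0.57 (SE 0.17, adjusted p in limma 0.520). CDC6, its partner in loading, went the other way with 5.21 and 5.56 in siNF90 against 6.002 and 5.742 in siNTC cells, a difference of -0.49 (SE 0.22, adjusted p in limma 0.612). MCM5, a subunit of that helicase, had -0.42 (SE 0.19), and UHRF1, which maintains DNA methylation after replication, had -0.40 (SE 0.23). Genes of the same step in replication licensing thus had differences of both signs.

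Upstream factors had a median of 0.040, with 9 of 14 positive, 5 negative and 0 called. MXD1, a partner of MAX that opposes MYC, had 5.39 and 5.43 in siNF90 and 4.54 and 4.54 in siNTC cells. Its difference of 0.87 (SE 0.17) had an adjusted p of 0.514 in limma and 0.137 with the trend and robust prior. The E-box factor TFAP4 had -0.29 (SE 0.19), and the DREAM and MuvB complex subunits LIN9 and LIN37 had 0.35 (SE 0.26) and 0.33 (SE 0.20).

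**Figure D5:**
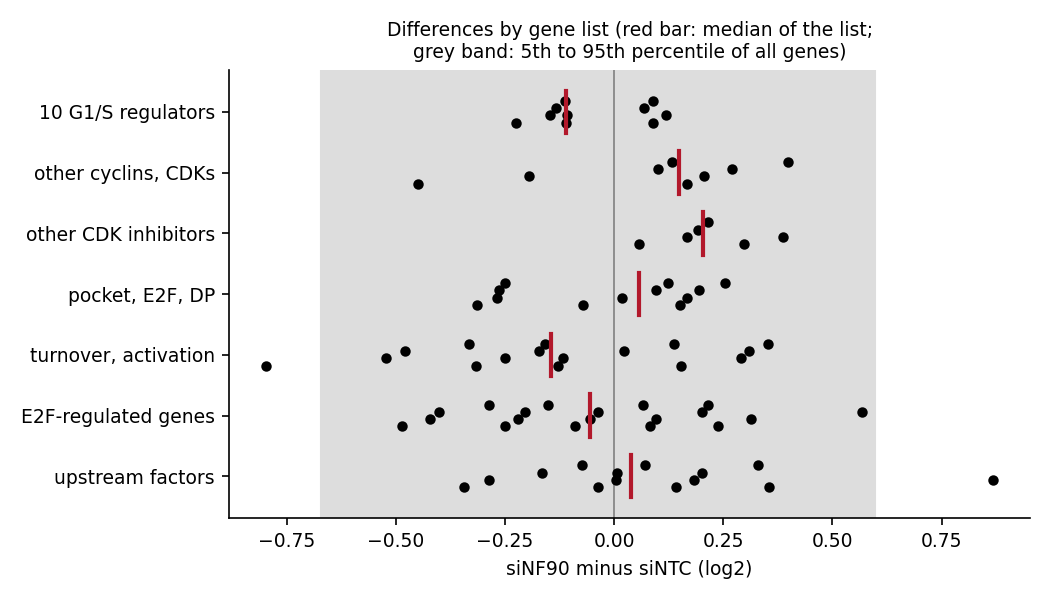
Differences (siNF90 minus siNTC, log2) of the 10 G1/S regulators and of the tested genes of the 6 pathway lists, 1 point per gene, with the list median in red. The grey band spans the 5th to the 95th percentile of all genes, -0.67 to 0.60, and WEE1 at -0.80 and MXD1 at 0.87 lie outside it.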

How the data were processed

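Total RNA of Huh7 cells was amplified, converted to labelled cDNA and hybridised to 1 array per sample, per the labels' protocols. The authors made the deposited log2 values by RMA-sketch in Affymetrix Expression Console, per the labels. RMA corrects background, normalizes quantiles and summarises probes, and pulls folds towards 1. The log base was taken from the method and the range of values. The program version and build are not stated in the sources used here.

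Of 352859 rows, 257971 had 1 gene symbol in the platform's table, 17460 several and 77428 none. Rows with 1 symbol and a mean over the 4 arrays at or above the 40th percentile were kept, 171120 in 19140 genes. limma 3.58.1 in R 4.3.3 was run on gene values, on rows, and with diffSplice (Simes) for unequal rows, two-sided, siNF90 minus siNTC. The scripts were tested on simulated data, with the noise of a row capped at the median SD of all kept rows. That check does not give the power of the tests in these data. The number of arrays, 2 per group, limits the precision.

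The 10 genes and the pathway lists were chosen with earlier results of these data known. All 10 genes were named. From each pathway list the text names the genes past the threshold or else the 4 with the smallest p, from each of the 10 genes the kept rows with the largest and smallest differences, and for CCNE1 the 3 genes of nearest pattern. Further rows were named after their values were seen. List genes without a row of their own symbol alone were not analysed here. The main test did not treat the arrays as paired. Centred on group means, arrays of the same number had a correlation of -0.0118, which cannot show whether they were handled together. The alternatives were other dim filters, summaries of rows, normalizations and priors, the replicate number as a block, and each array left out.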

Additional observations from a re-analysis of the deposited data

How the results depend on the processing

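Under the other filters, summaries, normalizations, priors, the block and each array left out, 0 of the 10 genes passed the threshold, and the lowest adjusted p was 0.663, for CCNE1 without siNF90 replicate 1. CCND1, CCND3 and CDKN1B kept the sign of their difference in all settings that gave a value. With at least 50% of its rows required, CCND3 was not tested. The sign turned with the median of rows for CDK2 (-0.22), CDK4 (-0.20) and CDKN1A (0.11), with the filter at the 60th percentile for CCNE2 (0.24), CDK4 (-0.0025) and CDKN1A (0.27), and without the dim filter for CDK6 (-0.0031). With each array left out, the range was -0.42 to 0.20 for CCNE1, -0.42 to 0.20 for CCNE2, -0.42 to -0.028 for CCND3, -0.078 to 0.21 for CDK2, 0.061 to 0.18 for CDK4, -0.047 to 0.22 for CDK6, -0.48 to 0.25 for CDKN1A and -0.34 to 0.043 for RB1. Sign changes came without siNF90 replicate 1 for CCNE2 (0.20), CDK2 (-0.033) and CDK6 (-0.047), without siNF90 replicate 2 for CCNE1 (0.20), without siNTC replicate 1 for CDK2 (-0.078) and RB1 (0.043), and without siNTC replicate 2 for CCNE2 (0.028) and CDKN1A (0.25). The cause was not tested. Over all genes limma called 4 without the dim filter and 48 with the trend and robust prior, where 0 were called in the main setting, 1683 having an unadjusted p under 0.05. Over rows it called 11 with the trend and robust prior, against 0. Genes with unequal rows numbered 446, and 287 with the replicate block. The same block left each difference as it was, with adjusted p between 0.794 for CCND3 and 0.947 for CDK2, and 0 genes called. Whether arrays of the same replicate number were handled together was not established here.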
